A study of Homo sapiens with 8 samples.

Results

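Replication-dependent histone genes encode the core histones H2A, H2B, H3 and H4 and the linker histone H1 that package newly copied DNA. They were examined in an RBFOX2 eCLIP experiment, in which RNA fragments crosslinked to the RNA-binding protein RBFOX2 are pulled down with it and sequenced. A gene belonged to the group when its RefSeq symbol named it as protein-coding in the H2AC, H2BC, H3C or H4C series or as H1-1 to H1-6, and a peak belonged to a gene when its midpoint lay in the gene's span on the gene's strand. The rule gave 69 genes. The 64 with a strand in the RefSeq table were analysed, among 15843 protein-coding genes with a strand, and H4C1, H4C3, H2AC12, H3C11 and H3C12 were not analysed here. These 64 genes held 90, 100, 96 and 98 called peaks in replicates 1 to 4, which is 384 of 1118316 called peaks in all.

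All samples came from HEK293T, a transformed human embryonic kidney cell line, with ultraviolet crosslinking at 254 nm and 400 mJ per square centimetre, and no other treatment named. RBFOX2 was immunoprecipitated (IP) from 4 samples, and 2% of each was set aside as its own input, so that the only contrast is IP against input. Each of the 4 deposited lists gives, per peak, a log2 fold of IP over input and a −log10 p. The labels do not say that the 4 pairs came from separate cultures. Every p-value computed over the 4 lists therefore measures only the spread between these samples, which may be technical. The −log10 p of a peak is the authors' value from 1 list and is no measure of that spread. The lists hold no expression levels, read counts or library totals, so the cell line's markers could not be checked and the depth behind a peak is unknown. Some folds recur exactly in several genes of a list, such as −1.00087 in replicate 1 in H2AC4, H4C4 and H2AC6. Such folds may rest on few reads, which was not tested.

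Replication-dependent histone mRNAs are made in S phase, when the cell needs histones to match its DNA. Their genes are mostly intronless, and their mRNAs end in a conserved stem-loop instead of a poly(A) tail. The stem-loop is bound by SLBP, and the U7 small nuclear ribonucleoprotein guides the cleavage that forms the end. RBFOX2 is best known as a splicing regulator that binds GCAUG in introns near alternative exons.

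The genes are grouped on few chromosomes. On GRCh38, 50 of the 64 lie on chromosome 6 between 25726063 and 27893891, 13 on chromosome 1 between 149782689 and 228458558, and H4C16 alone on chromosome 12. The median annotated span of the 64 genes was 494.5 nt, and 56 spans were at most 1000 nt long. The other 8 (H2BC18, H4C15, H2BC21, H2BC4, H2BC5, H3C4, H3C6 and H2BC12) have longer annotated spans, up to 29682 nt for H2BC18. H2AC7 lies inside the span of H3C4 on the same strand, and all peaks of H2AC7 count for both (4, 5, 4 and 3 in replicates 1 to 4). The tables used here give spans and strands but no exons, so no peak is placed in a coding or untranslated part. Many of these genes are near-identical copies, and how reads were divided among copies is not given in the sources used here. Values of single genes are uncertain to that extent.

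Histone transcripts were present in the peak lists. A sense peak was called in at least 1 list for 41 of the 64 genes and in all 4 lists for 33. The number of genes with a peak was 38, 37, 39 and 38 in replicates 1 to 4, a share of 59.4% ± 1.28 (SD, n = 4 lists). The same share was 12.4% ± 0.334 (SD, n = 4) among 617 other protein-coding genes with a span of at most 1500 nt. A called peak needs reads in the library, and without expression levels a gene with no RNA and a gene with no crosslinked RNA cannot be told apart.

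By family, a peak in all 4 lists was found for 3 of 6 linker histone genes (H1-2, H1-3 and H1-4), 9 of 16 H2A genes, 11 of 18 H2B genes, 4 of 11 H3 genes and 6 of 13 H4 genes. No list had a peak in 23 genes. Among the linker histones these were H1-1 and H1-5. Among H2A genes they were H2AC1, H2AC14, H2AC18 and H2AC19, and among H2B genes H2BC1, H2BC3, H2BC6, H2BC8, H2BC9, H2BC10 and H2BC14. Among H3 genes they were H3C3, H3C8, H3C14 and H3C15, and among H4 genes H4C6, H4C7, H4C9, H4C12, H4C13 and H4C14. The H2BC series thus had no gene with a peak in only some of the lists, whereas 3 H2A, 3 H3, 1 H4 and 1 H1 gene did.

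The peaks recurred at the same places. For each list, the share of peaks with at least 1 nt in a same-strand peak was taken against every other list in turn and averaged. It was 81.6% ± 1.83 for histone peaks (mean over lists, SD, n = 4). The other short genes gave 50.7% ± 1.16 and all sense peaks of protein-coding genes 36.5% ± 0.688. Histone peaks were longer, as given below, which makes such an overlap easier. Merging the histone peaks of the 4 lists gave 102 regions. Of these, 44 had a peak in all 4 lists (43.1%), 8 in 3, 9 in 2 and 41 in 1 list. Over all called peaks, 49493 of 701159 merged regions had a peak in all 4 lists (7.06%).

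Histone peaks were also longer and covered more of their genes. The median peak length was 71.3 ± 3.18 nt (SD, n = 4), against 48.8 ± 1.5 nt for all sense peaks of protein-coding genes. In genes with a peak, the peaks covered a median of 25.7% ± 2.46 of the span, against 9.34% ± 0.589 in the other short genes. Nearly all peaks in histone spans were on the gene's strand, 98.7% ± 0.951 per list, with 1, 2, 2 and 0 antisense peaks. In the other short genes 86.6% ± 1.99 were on the gene's strand (SD, n = 4 for each).

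Within the 56 genes of at most 1000 nt, peaks leaned to the transcript's start. With each span cut into 3 equal parts, the first part held 42.1% ± 1.79 of the peaks and the last part 26.2% ± 2.21 (SD, n = 4). Other genes of that length gave 43.0% ± 2.90 and 23.1% ± 3.31, so the placement was much the same there. The first peak began a median of 38.6 ± 3.45 nt after the annotated start, and the last ended a median of 83.3 ± 21.9 nt before the annotated end (mean of the list medians, SD, n = 4). No peak of these genes ran past either end. No called peak had its midpoint within 500 nt outside a span on the same strand in any list. That count left out peaks overlapping any protein-coding gene on their strand.

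RBFOX proteins bind GCAUG, so the first 50 transcribed bases of each gene were searched for its DNA letters GCATG in the RefSeq GRCh38.p14 sequences. On the transcribed strand GCATG occurred in 4 of 64 histone genes (6.25%) and in 492 of 15843 protein-coding genes (3.11%). On either strand it occurred in 10 histone genes (15.6%) and 780 protein-coding genes (4.92%). No test compared these shares, and near-identical copies are not independent matches. GCATG contains the start codon ATG, and where that codon falls in each window was not taken into account. The 4 stretches with the motif on the transcribed strand are shown, 30 bases each, 5′ to 3′, with GCATG in capitals, because they are the only places where the motif could be set beside the peaks. They lie at chr1:149813664-149813693 on the minus strand for H3C13, chr6:26183781-26183810 on the plus strand for H2BC6, chr6:26216639-26216668 on the minus strand for H2BC8 and chr6:27810060-27810089 on the plus strand for H3C10.
H3C13: caatgagacaGCATGgcccgtactaagcag
H2BC6: aacagcaaagataGCATGcctgagccagcg
H2BC8: actgctgttattgttttctgacaGCATGcc
H3C10: ctagctctgaagGCATGgcgcgtacgaagc
Counted from the annotated start, the motif covers bases 11 to 15 of H3C13, 34 to 38 of H2BC6, 44 to 48 of H2BC8 and 22 to 26 of H3C10. H2BC6 and H2BC8 had no called peak in any list, and no peak of H3C13 reached the motif. In H3C10 a peak covered the whole motif in 3 lists, with log2 folds of −0.18, −0.88 and −0.82 in replicates 1, 3 and 4. The H3C10 peak of replicate 2 began at base 25, inside the motif, and had a log2 fold of 0.56. The 3 peaks over the motif thus lay below input and the one that began within it lay above. A match is a description of these letters only, and the rest of each transcript was not searched.

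No histone peak reached the usual eCLIP threshold for enrichment, a log2 fold of at least 3 with a −log10 p of at least 3. The count was 0 in each of the 4 lists, 0 of 384 peaks and 0 of the 41 histone genes with a sense peak. The background is low: 0.810% of the 869814 sense peaks of protein-coding genes passed, and 8.56% of the 10503 protein-coding genes with a sense peak had at least 1 that did. Those 10503 genes held 869814 peaks and the 41 histone genes 384, so the gene counts are not on equal terms. The other short genes also had 0 such peaks, among 625. Histone folds ran from −3.32 to 2.00 on the log2 scale. A −log10 p of at least 3 alone was reached by 5 histone peaks, a mean of 1.29% per list, near the 1.08% of the background peaks. These were 1 peak of H1-4 in each of the 4 lists and 1 peak of H2BC21 in replicate 2. All 5 had a log2 fold above 1, and 9351 of the 9368 background peaks at that p had one of at least 1.

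Histone peaks lay mostly at or below input. The median log2 fold of histone peaks was −0.46, 0.16, −0.31 and −0.49 in replicates 1 to 4, a mean of −0.28 ± 0.30 (SD, n = 4). Replicates 1, 3 and 4 were below 0 and replicate 2 above it, and without replicate 2 the mean was −0.42. The median of all sense peaks of protein-coding genes was 0.00 in each list, as was that of the other short genes. Both medians are the commonest fold of each list, described below.

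The histone peaks differed from the background on both sides of 0. A log2 fold below −0.5 was found for 50%, 26%, 38.5% and 49.0% of them, a mean of 40.9% ± 11.2, against 23.7% ± 0.504 over all sense peaks of protein-coding genes and 32.4% ± 2.67 in the other short genes. A log2 fold above 0.5 was found for 16.7%, 25%, 12.5% and 10.2%, a mean of 16.1% ± 6.51, against 31.6% ± 1.37 and 29.9% ± 2.89 (SD, n = 4 for all). Replicate 2 had the smallest share of low folds and the largest share of high ones. Each list has 1 log2 fold, within 0.002 of 0, that is far commoner than any other. It was carried by 41.4% ± 0.932 of all sense peaks, by 26.1% ± 1.53 of the peaks in other short genes and by 11% ± 3.27 of the histone peaks (SD, n = 4).

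**Figure D1:**
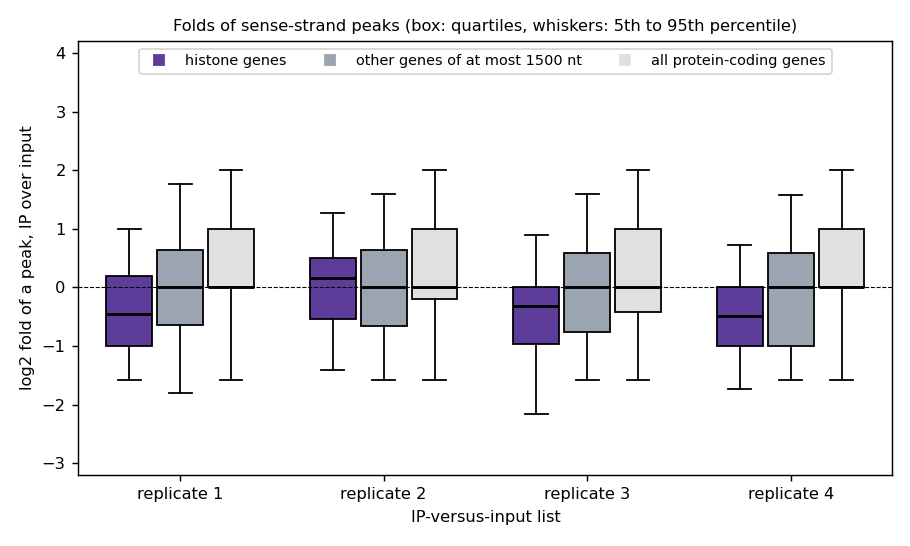
Log2 fold of IP over input (y axis) of sense peaks in the 4 IP-versus-input lists (x axis), for histone genes, other protein-coding genes with a span of at most 1500 nt and all protein-coding genes. Boxes span the quartiles with the median as a line, and whiskers run from the 5th to the 95th percentile; the histone median lies at −0.46, 0.16, −0.31 and −0.49, while both other medians lie at 0.00 in every list.

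Replicate 2 stood apart for these genes. Among the 33 genes with a peak in all 4 lists, it gave the highest gene median in 18 and the lowest in 2, and 22 of its medians were above 0, against 10, 8 and 8 in replicates 1, 3 and 4. Its gene medians exceeded the mean of the other 3 lists by a median of 0.44 on the log2 scale. Over all 9301 protein-coding genes with a sense peak in every list, that difference was 0.00. That value is the gap between the commonest folds of the lists, which all lie near 0. It therefore cannot show whether the shift was particular to histone genes. The order of the histone genes was shared in part. Leaving out H3C4, whose values are those of H2AC7, Spearman's rho between pairs of lists over 32 genes ran from 0.345 (replicates 2 and 3) to 0.746 (replicates 1 and 4). Genes are not independent replicates, and these genes share their libraries and near-identical sequence.

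The linker histone family differed from the core families. The median log2 fold of the H1 peaks was 0.63, 0.67, 0.41 and 0.46 in replicates 1 to 4, a mean of 0.54 ± 0.13 (SD, n = 4), from 40 peaks. That of the core histone peaks was −0.59, 0.00, −0.44 and −0.63, a mean of −0.41 ± 0.29, from 344 peaks. The H1 median was above the core median in each list, by 1.22, 0.67, 0.85 and 1.09, a mean difference of 0.96 ± 0.25. Of the H1 peaks 22 had a log2 fold above 0.5 and 0 had one below −0.5, while of the core histone peaks 40 were above 0.5 and 156 below −0.5. The H1 peaks came from H1-2, H1-3, H1-4 and, in 1 list, H1-6, so the family value rests on few genes.

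The 4 core families, whose proteins form the nucleosome's octamer, had list medians mostly below 0. The mean of the list medians was −0.46 ± 0.38 for H2A (119 peaks), −0.25 ± 0.30 for H2B (118 peaks), −0.49 ± 0.29 for H3 (61 peaks) and −0.40 ± 0.24 for H4 (62 peaks). Replicate 2 was the highest list in each of these families, at 0.06, 0.17, −0.12 and −0.13 in the same order. All families share the lists, and within each list the H2B median was above those of H2A and H3. It was −0.46, 0.17, −0.23 and −0.48 in replicates 1 to 4. H2A stood at −0.62, 0.06, −0.45 and −0.83, and H3 at −0.59, −0.12, −0.44 and −0.82. H4 was below H2B in replicates 1 to 3 and slightly above it in replicate 4. These differences were not tested.

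**Figure D2:**
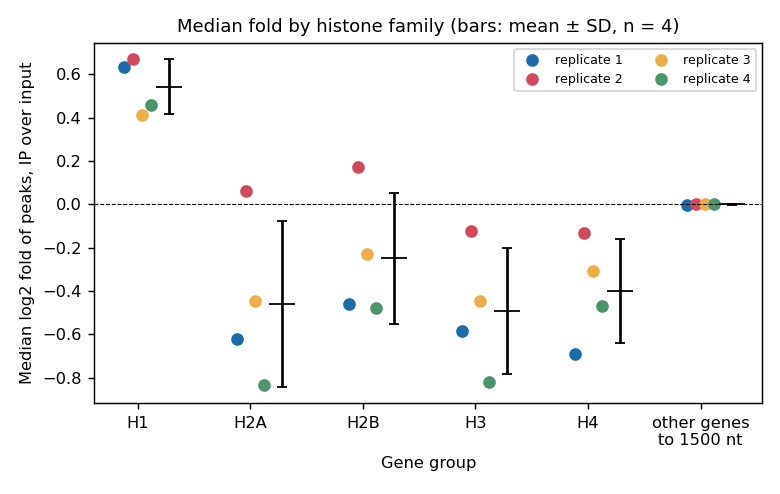
Median log2 fold of IP over input (y axis) of the peaks of each histone family and of other protein-coding genes of at most 1500 nt (x axis). Points are the 4 lists and bars the mean with SD (n = 4); H1 lies between 0.41 and 0.67 in every list, the core families lie mostly below 0, and replicate 2 is the highest list in each core family.

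Single genes were compared with input by the median log2 fold of their sense peaks in each list. The mean over the 4 lists was tested against 0 with limma (two-sided, Benjamini-Hochberg adjustment over all 9301 genes with a sense peak in every list, threshold 0.05). The pooling of variance over genes did not raise the standard error of a histone gene above that of its own 4 values. In H1-2 it was 0.0254, for an SD of 0.0537. A small SD by luck was therefore not guarded against. Of the 33 histone genes tested, 2 were higher in IP (background 4.33%) and 2 lower (background 0.312%). The median of the histone means was −0.30, against 0.00 over all genes tested, the value of a gene whose medians are the commonest folds. At an unadjusted p under 0.05 there were 13 histone genes and 1050 genes in all. The means of 10 histone genes were above 0 and those of 23 below. All 4 medians were above 0 in 5 genes (background 12.0%) and below 0 in 10 (background 3.90%). A gene whose medians are the commonest folds falls in neither share, which lowers both backgrounds. Those folds lie below 0 in replicates 1 and 4 and above 0 in replicates 2 and 3.

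H1-2 (chromosome 6, 26055740 to 26056470, minus strand), a linker histone gene, was higher in IP. Its medians were 0.63, 0.67, 0.75 and 0.65 in replicates 1 to 4. The lists lay close together and all above 0, with a mean of 0.68 ± 0.05 (SD, n = 4), a 1.6-fold level over input (limma, adjusted p = 0.00527). The peaks were not even along the gene. Near the start, between 35 and 128 nt, all lists had a peak at input level, with a mean of 0.00 ± 0.19. The region from 194 to 264 nt stood at 0.76, 0.80, 0.88 and 0.72 (mean 0.79 ± 0.07) and that from 422 to 498 nt at 0.63, 0.67, 0.80 and 0.60 (mean 0.68 ± 0.09). Tested as regions shared by all lists, neither passed (limma, adjusted p = 0.0616 and 0.0935).

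H2BC13 (chromosome 6, 27807479 to 27807929, minus strand), a core histone H2B gene, was the other gene called higher. Its medians were 0.61, 0.74, 0.78 and 0.85, with a mean of 0.74 ± 0.10 and a 1.67-fold level (limma, adjusted p = 0.0152). The values rest on 2, 1, 1 and 1 peaks, none with a −log10 p above 0.514. In the region that all 4 lists share, 22 to 122 nt from the start, replicate 1 was at −0.00 and the others at 0.74, 0.78 and 0.85, and the mean of 0.59 ± 0.40 did not pass (limma, adjusted p = 0.180).

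H2AC20 (chromosome 1, 149886918 to 149887411, plus strand), which encodes a core histone H2A, was lower in IP. Its medians were −1.26, −1.43, −1.52 and −1.47 from 3, 2, 3 and 2 peaks. All lists were far below 0 and close together, with a mean of −1.42 ± 0.11 (SD, n = 4), 2.68-fold below input (limma, adjusted p = 0.00509). Each of its 10 peaks had a log2 fold below −0.9.

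H2AC6 (chromosome 6, 26124172 to 26124690, plus strand), another H2A gene, was also lower. Its medians were −1.0, −1.01, −0.77 and −1.21, with a mean of −1.0 ± 0.18 and 2.00-fold below input (limma, adjusted p = 0.0266). Its 5, 4, 4 and 4 peaks covered nearly the whole span. Of these 17 peaks 2 were above 0, both in the last part of the gene, at 0.14 in replicate 1 and 0.52 in replicate 3, and the lowest, at −3.32 in replicate 2, also lay there. Taking the peak of highest −log10 p in place of the median ended the call, with a mean of −0.27 (limma, adjusted p = 0.450).

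The calls on these 4 genes depended on the number of lists. Each kept its direction when any 1 list was left out. H1-2, H2BC13 and H2AC20 were still called without replicate 1, H1-2 and H2AC20 without replicate 3, and none of the 4 without replicate 2 or replicate 4. Over these alternatives the limma adjusted p ran from 0.00849 to 0.0678 for H1-2, 0.0414 to 0.124 for H2BC13, 0.0107 to 0.0678 for H2AC20 and 0.0725 to 0.187 for H2AC6.

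**Figure D3:**
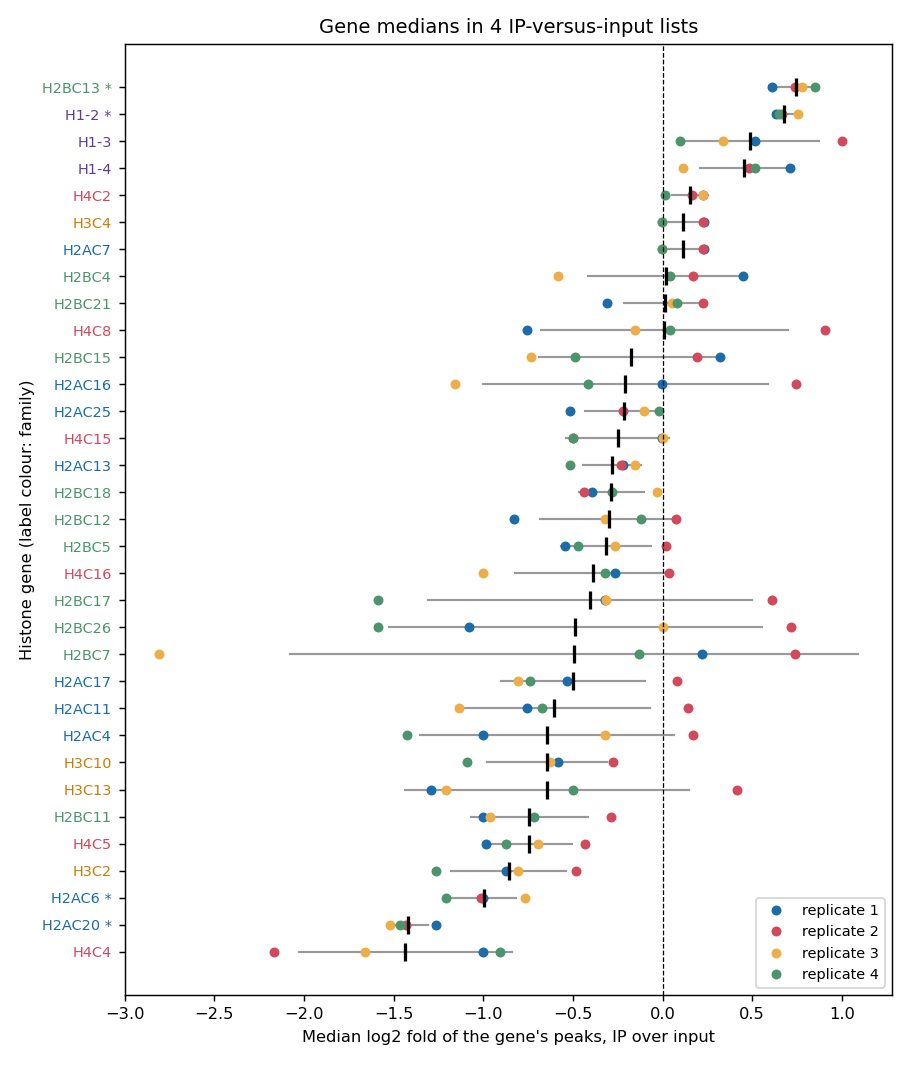
Median log2 fold of a gene's sense peaks (x axis) for the 33 histone genes with a peak in all 4 lists (y axis, label colour by family, an asterisk for a gene called by limma). Coloured points are the 4 lists, black ticks the means and grey bars the SD (n = 4); 10 means lie above 0 and 23 below, and H3C4 repeats the values of H2AC7.

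The other linker histones with peaks in every list were not called by their medians. H1-3 stood at 0.51, 1.00, 0.34 and 0.10, a mean of 0.49 ± 0.38 (limma, adjusted p = 0.481), from 1 or 2 peaks a list. H1-4 stood at 0.71, 0.48, 0.12 and 0.52, a mean of 0.46 ± 0.25 (limma, adjusted p = 0.272). Both had all 4 lists above 0, with more spread between lists than H1-2. The gene's value decided these calls. With the peak of highest −log10 p, H1-4 at 1.23 and H1-3 at 0.71 were called higher (limma, adjusted p = 0.00170 and 0.0171), where the background is 80.9%. With a mean weighted by peak length, H1-4 at 0.51 was called (limma, adjusted p = 0.0338; background 20.1%). H4C2, a core histone H4 gene, had small positive values of 0.22, 0.16, 0.22 and 0.01 (mean 0.16 ± 0.10, limma, adjusted p = 0.398). H2AC7 and H3C4, which share their peaks, stood at 0.11 ± 0.13 (adjusted p = 0.734). H2BC4, H2BC21 and H4C8 had means of 0.02 ± 0.44, 0.01 ± 0.23 and 0.01 ± 0.69, and their lists lay on both sides of 0.

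At the low end, 3 genes among the 5 lowest were not called by their medians. H4C4, an H4 gene, had the lowest mean of all, from medians of −1.0, −2.17, −1.66 and −0.91 (mean −1.43 ± 0.59, limma, adjusted p = 0.145), with 1, 1, 2 and 1 peaks. H3C2, an H3 gene, stood at −0.88, −0.48, −0.81 and −1.26 (mean −0.86 ± 0.32, limma, adjusted p = 0.116). H4C5, an H4 gene, stood at −0.99, −0.43, −0.70 and −0.87 (mean −0.75 ± 0.24, limma, adjusted p = 0.0847). All 4 lists were below 0 for each of the 3, and in H4C5 so was each of the 4, 4, 4 and 5 peaks that tiled the gene. All 3 were called lower under other gene values. With a mean weighted by peak length the limma adjusted p was 0.0104 for H4C4, 0.00487 for H3C2 and 0.00925 for H4C5 (background 3.12%). With the peak of highest −log10 p it was 0.0118, 0.0280 and 0.0310 in the same order (background 0.0968%).

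Regions shared by all lists were compared in the same way. For each merged region with a called peak in every list, each list contributed the peak whose −log10 p was highest, and ties took the highest fold. Since every negative fold carries a −log10 p of 0, a region of low peaks takes its highest fold, which pulls the values up. In regions with peaks above 0 the choice by −log10 p also favours a high fold. Of 44 histone regions tested, limma called 1 higher (background 21.1%) and 4 lower (background 1.81%), with adjustment over all 49493 regions. The median of the histone means was −0.10, against 0.50 over all regions. The mean lay above 0 in 21 histone regions and below 0 in 23.

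The region called higher lies in H1-4, a linker histone gene, at chr6:26156750-26156858 on the plus strand, 422 to 530 nt from the annotated start. The peaks chosen had log2 folds of 1.25, 1.54, 1.02 and 1.09 in replicates 1 to 4, with −log10 p of 4.38, 7.33, 3.10 and 3.92. These peaks were above 1 in all lists, with a mean of 1.23 ± 0.23 (SD, n = 4), a 2.34-fold level over input (limma, adjusted p = 0.0226). Each list also held a shorter peak in the region, between 422 and 446 nt, that was not used. Those shorter peaks stood at 1.03, 0.76, 0.90 and 0.79. No other histone gene had peaks that reached a −log10 p of 3 in more than 1 list. Near the start of the same gene, 40 to 186 nt, the shared region stood at −0.00, 0.48, 0.12 and 0.24, a mean of 0.21 ± 0.21 (limma, adjusted p = 0.573). In H1-4 as in H1-2, the folds near the start were thus at or little above input, and those past 422 nt were higher in every list.

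Both neighbouring regions near the start of H2AC20 were lower. At chr1:149887042-149887138 on the plus strand, 125 to 221 nt, the log2 folds were −0.93, −1.64, −1.52 and −1.74 (mean −1.46 ± 0.36, limma, adjusted p = 0.0185). At chr1:149886952-149887041, 35 to 124 nt, they were −2.81, −1.22, −2.17 and −1.19 (mean −1.85 ± 0.78, limma, adjusted p = 0.0253). Replicate 1 was the highest list in the first of these and the lowest in the second.

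The remaining lower regions lie in an H2B and an H3 gene. In H2BC11, at chr6:27132352-27132492 on the minus strand, 304 to 444 nt, the log2 folds were −1.0, −1.0, −1.24 and −0.72 (mean −0.99 ± 0.21, limma, adjusted p = 0.0383). In H3C2, at chr6:26031989-26032063 on the minus strand, 37 to 111 nt, they were −0.65, −1.18, −0.81 and −1.39 (mean −1.01 ± 0.34, limma, adjusted p = 0.0462). All lists lay below 0 in both. None of the 5 regions was called when any 1 list was left out, with limma adjusted p from 0.0529 to 0.133, although each kept its direction. Without replicate 1, 2 or 4 limma called no region among all those tested, with smallest adjusted p-values of 0.0516, 0.0504 and 0.0517.

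**Figure D4:**
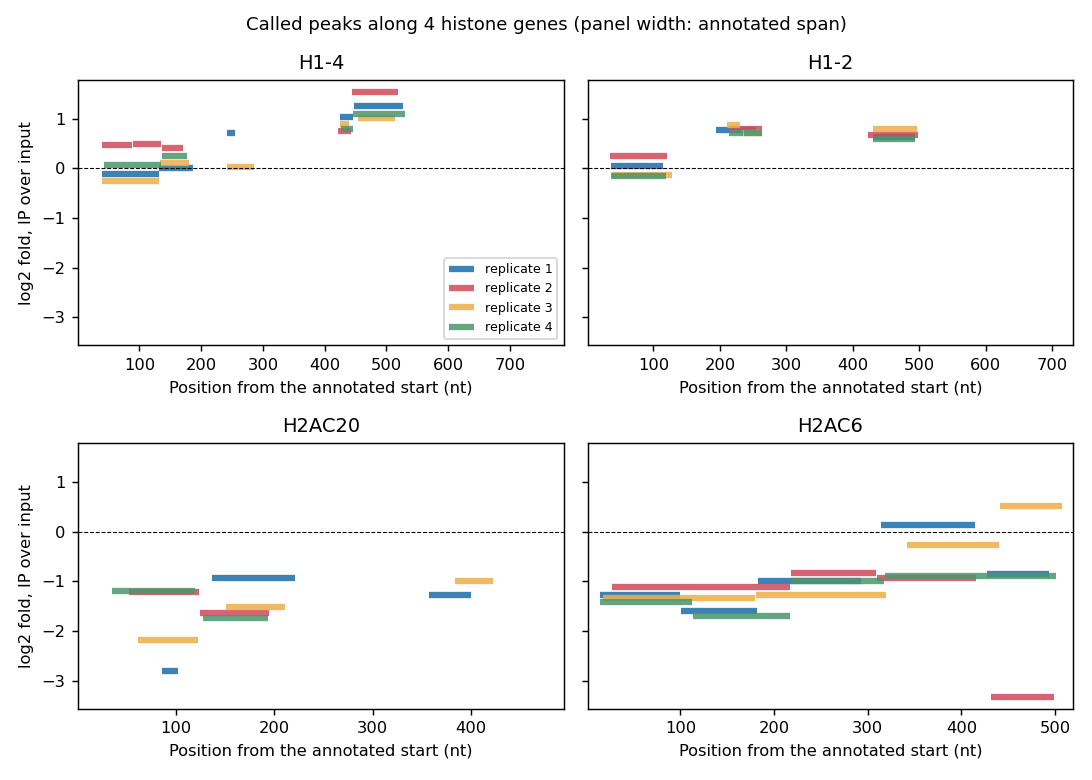
Called peaks (bars, coloured by list) along H1-4, H1-2, H2AC20 and H2AC6, by position from the annotated start in nt (x axis, panel width is the annotated span) and log2 fold of IP over input (y axis). In H1-4 the peaks between 422 and 530 nt lie above those near the start in all 4 lists, and the peaks of H2AC20 lie below 0 throughout.

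Across the histone genes as a group, folds were not higher towards the end of the transcript. In genes of at most 1000 nt, the median log2 fold of peaks in the first of 3 equal parts of the span was −0.14, 0.34, −0.58 and −0.20, a mean of −0.14 ± 0.38 (130 peaks). In the middle part the mean was −0.48 ± 0.32 (98 peaks). In the last part the medians were −1.0, −0.24, −0.28 and −0.94, a mean of −0.62 ± 0.41 (81 peaks). The last part was below the first in replicates 1, 2 and 4 and above it in replicate 3.

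Histone genes outside the rule gave a comparison with transcripts that mostly end in a poly(A) tail. The list held 12 genes, among them the replacement histones H3-3A and H3-3B, the variants H2AZ1, H2AZ2 and H2AX, the centromeric CENPA and the macro-histones. With 10 tested, 0 were called higher and 0 lower by limma (background 4.33% and 0.312%), shares at which so short a list would often hold no call, their means ran from −0.81 (H2AZ2) to 0.42 (H3-3A), and their median was 0.00. That median is the value of CENPA and the macro-histone genes, whose medians are the commonest fold of each list. The smallest limma adjusted p among the 10 genes was 0.292, for H3-3A. Of their 563 peaks 0 passed the enrichment threshold (background 0.810%).

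Genes listed for a part in making or processing histone mRNA lay on both sides of input. The list of 28 genes covers SLBP, U7 and Sm proteins, cleavage factors, cap-binding proteins and the transcription coactivator NPAT. Not all are particular to histone mRNA, among them PAPOLA, FIP1L1, WDR33, UPF1 and the Sm proteins. ERI1, LSM1, LSM10, NCBP1, RNU7-1 and ZNF473 could not be tested. Of 22 tested, limma called 1 higher and 0 lower, near the shares over all genes (4.33% and 0.312%). The median of their means was 0.00, as over all genes. Both are the value of genes whose medians are the commonest folds, so the match says little. The gene called was SRRT, whose protein ARS2 links the mRNA cap to 3′ end processing. It stood at 1.24, 0.83, 1.27 and 1.00, above 0 in all lists, with a mean of 1.09 ± 0.21 (adjusted p = 0.0304). NCBP2, which encodes a cap-binding subunit, had the highest mean of the list at 1.29 ± 0.50 but was not called (adjusted p = 0.126). At the low end, the genes of the Sm proteins SNRPE and SNRPF had means of −0.88 ± 0.60 and −0.77 ± 0.55 and were not called (limma, adjusted p = 0.430 and 0.449). SLBP had a mean of 0.00 (limma, adjusted p = 0.853). Its 4 medians are the commonest fold of each list, so this value was not shown to be a level at input. Of the 1889 peaks of this list, 2 passed the enrichment threshold, both in replicate 3 (background 0.810% over all lists). The first was in SRRT at chr7:100882272-100882339 on the plus strand (log2 fold 3.09, −log10 p 3.40). The second was in SYMPK, which encodes the scaffold of the cleavage complex, at chr19:45828718-45828795 on the minus strand (log2 fold 3.0, −log10 p 3.14).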

How the data were processed

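Human HEK293T cells were profiled by RBFOX2 eCLIP, with 4 IP libraries and 4 paired inputs. The submitters' processing notes name UMI-tools 1.1.1, cutadapt 3.2 and STAR 2.7.7a and the builds hg38 and GRCh38.p13. The peak caller, scaling and treatment of multi-mapped reads are not given in the sources used here. The deposited lists have no header. Their first value was read as the authors' −log10 p-value (never negative, at most 400, 0 for every negative fold) and the second as the authors' log2 fold of IP over input, from the values. Peaks were assigned by midpoint and strand to RefSeq GRCh38.p14 spans; 4207 protein-coding genes without a strand were left out. Gene and region means were tested with limma 3.58.1 in R 4.3.3 (intercept only, eBayes without trend). Both fits were also run on simulated normal values with each feature's real SD, without the ties of the real ones. That SD is 0.00107 in genes whose medians are the commonest folds, such as SLBP. In the histone genes tested it runs from 0.0537 (H1-2) to 1.58 (H2BC7). The gene rates given next are over all genes and do not apply to histone genes alone. With 200 features shifted, the gene fit recovered 46% of log2 shifts of 0.5 and 66% of 1. The region fit recovered 0% at both and 18% at 3. With 9896 of 49493 regions shifted, it recovered 3.35% at 0.5 and 23.6% at 1. A region left uncalled at a small fold was thus not shown to lie at input. Genes were named when called by limma or enriched, or among the 10 highest and 5 lowest means. Genes with the strongest peaks, the called regions, the motif and SRRT, NCBP2, SLBP and SYMPK were named after their values were seen. The members and lists were chosen with earlier results of these data known. Alternatives covered thresholds, gene and region values, peak assignment and leaving out each replicate.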

Additional observations from a re-analysis of the deposited data

Results flagged for a closer look

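Among 51 sets of 4 values checked, 1 had a sample far from the others. The share of H2B peaks with a log2 fold above 0.5 was 28.1% in replicate 2, against 11.5%, 10.0% and 10.0% in replicates 1, 3 and 4. Chance alone marks about 1 set in 20 in this way. Replicate 2 also had the highest medians of the core histone families.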

How the results depend on the processing

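At a log2 fold of at least 1, with the same p threshold, enriched histone peaks numbered 1.25 per list, in 2 genes and 1 region shared by all lists, against 0, 0 and 0. The histone genes called higher numbered 9 with the peak of highest −log10 p per gene (which moved the median of all genes to 1.58 and called 7528 genes higher), 0 against a log2 fold of 1, 1 with at least 3 peaks per list, and 0 to 2 with 1 replicate left out. Those called lower numbered 4 (of 9 among all genes; H2AC20, H3C2, H4C4 and H4C5, without H2AC6), 0, 1 and 0 to 1 in the same order. With a mean weighted by peak length they numbered 6 (of 290; H2AC20, H2AC6, H2BC11, H3C2, H4C4 and H4C5). The regions called higher and lower were 0 and 0 against a log2 fold of 1, and 0 and 0 with any 1 replicate left out. The median log2 fold of histone peaks was 0.46 among peaks with a −log10 p above 0, which leaves out every negative fold by construction. The last of 3 equal parts of the span held 17.2% of peaks when placed by their 5′ end and 26.2% in spans of at most 1000 nt, against 23.0%. Means near 0 changed sign for uncalled genes. With 1 replicate left out, H2BC4 ran from −0.12 to 0.22, H2BC21 from −0.058 to 0.12 and H4C8 from −0.29 to 0.27. With length weights H2BC21 moved to −0.026 and H4C8 to −0.033. Except where stated, the cause was not tested. Of the other values of single genes, 104 kept their side of the threshold, 13 passed it and 16 lost it. No paired analysis was possible because each list already combines an IP with its own input, which leaves 1 value per replicate number. The unknown depth limits what a fold can show, near 0 or far from it.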
